A study of Drosophila melanogaster with 2 samples.

Results

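Intergenic peaks close to a transcript start numbered 552 of the 9295 peaks in a genome occupancy map of CG15336-eGFP, which was 5.94% of the list (Wilson 95% interval 5.48 to 6.44). The protein is the product of CG15336, a coding gene of Drosophila melanogaster that carries only an annotation number as its name, joined to enhanced green fluorescent protein. Chromatin of whole transgenic prepupae aged 2 days was precipitated with an antibody against GFP and sequenced. There was 1 group with 2 biological replicates, both from the strain CG15336-GFP, and the sex of the animals was not collected. The peaks therefore describe a tagged protein added by a transgene, averaged over all tissues of the animal, and no library without the transgene was analysed here. The 552 peaks, called members here, came from the authors' conservative list of peaks reproducible between the replicates. Their summits lay in no annotated gene and more than 500 and at most 2000 bp from the nearest transcript start of any gene. Peak lists carry no read counts, so the depth is unknown. Intervals for shares cover counting error over peaks, bases or genes. With 1 group, no test was made, and the comparisons are descriptions of these lists.

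Intergenic DNA of flies carries much of the sequence that controls when and where genes are transcribed. Stretches just before a promoter can hold enhancers, insulators and other sites where proteins bind, and a site can act on a gene other than the one whose start is closest. Sites of this kind are commonly short, free of coding sequence and open to protein binding between more regular nucleosomes. Naming a peak by its nearest start, as done here, gives its position and not the gene it may control.

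Base composition at the summit is the feature that set most members apart from their own flanks. The reference sequence from 50 bp before to 50 bp after the summit is therefore shown for 10 members, the highest of those found in both replicates, with 1 arm left out. That omission concerns the member before lncRNA:CR45310 (signal 602.6), which ranked between those at RasGAP1 and stck. The sequences are from Release 6 of the genome (dm6), plus strand, and capitals mark runs of at least 6 bases that are A or T only.
CR45643 (chr3R:16222456-16222556): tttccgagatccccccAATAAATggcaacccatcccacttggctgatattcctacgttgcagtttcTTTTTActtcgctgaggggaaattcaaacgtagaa
Atf3 (chrX:1277131-1277231): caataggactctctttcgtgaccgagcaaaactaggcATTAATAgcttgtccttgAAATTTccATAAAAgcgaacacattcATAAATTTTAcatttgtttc
ed (chr2L:4030597-4030697): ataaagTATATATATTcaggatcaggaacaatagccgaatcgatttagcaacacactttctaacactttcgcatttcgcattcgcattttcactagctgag
ds (chr2L:715498-715598): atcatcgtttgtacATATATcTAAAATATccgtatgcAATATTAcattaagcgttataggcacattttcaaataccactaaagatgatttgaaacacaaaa
CR44713 (chr3L:11246205-11246305): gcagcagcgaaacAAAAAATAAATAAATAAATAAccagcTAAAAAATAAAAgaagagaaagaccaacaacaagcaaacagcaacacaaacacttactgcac
CR44723 (chr3L:11325848-11325948): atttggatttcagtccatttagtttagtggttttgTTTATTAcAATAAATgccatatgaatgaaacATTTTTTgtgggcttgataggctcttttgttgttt
CG13676 (chr3L:8153344-8153444): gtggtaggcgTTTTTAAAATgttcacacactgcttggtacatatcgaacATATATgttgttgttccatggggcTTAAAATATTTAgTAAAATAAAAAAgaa
RasGAP1 (chr3L:9855927-9856027): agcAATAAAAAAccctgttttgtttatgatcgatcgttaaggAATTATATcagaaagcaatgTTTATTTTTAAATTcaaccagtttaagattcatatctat
stck (chr3R:8355121-8355221): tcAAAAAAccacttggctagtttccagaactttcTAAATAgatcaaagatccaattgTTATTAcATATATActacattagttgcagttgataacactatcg
stv (chr3L:13476913-13477013): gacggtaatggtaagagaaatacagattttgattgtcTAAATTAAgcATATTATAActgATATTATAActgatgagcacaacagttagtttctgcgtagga
The highest member, before CR45643, was one of the few strong ones that were richer in G and C than their surroundings, at 44.6% GC against 36.1% in its flanks. The window at CG13676 had 40 of its bases in such runs, against 53.0% GC in its flanks. For contrast, 3 weaker members of the patterning and hormone lists are shown with the same capitals. They were picked after their values were seen, for their high GC.
Hr38 (chr2L:20716157-20716257): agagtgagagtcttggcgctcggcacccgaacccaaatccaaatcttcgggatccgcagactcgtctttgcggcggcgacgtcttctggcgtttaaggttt
bab2 (chr3L:1178161-1178261): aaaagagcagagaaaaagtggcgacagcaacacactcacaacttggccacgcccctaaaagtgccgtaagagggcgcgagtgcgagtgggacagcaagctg
Lim1 (chrX:8806735-8806835): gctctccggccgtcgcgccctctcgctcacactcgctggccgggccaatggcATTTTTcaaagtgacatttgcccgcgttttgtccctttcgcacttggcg
The Hr38 and bab2 windows had 0 bases in runs of this kind and Lim1 had 6, at 56.4%, 55.4% and 61.4% GC.

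The strongest members lay upstream of lncRNA:CR45643, Atf3, ed and ds. The authors gave each peak a signal, whose scale is not stated, and it is used here to describe and rank peaks within a list. The highest member had a signal of 1179 and ranked 58 of all 9295 peaks. Its summit lay 889 bp upstream of lncRNA:CR45643, and the nearest protein-coding start, 3145 bp away, was that of tara, a gene of the trithorax group. It had a signal of 509.5 in replicate 1 and 676.4 in replicate 2, where it ranked 89 and 54. It was the only member among the 100 highest peaks of the list.

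The next members, chosen by their signal in the conservative list, each held a high rank in both replicates. The Atf3 member lay 1897 bp upstream of that gene, which encodes a basic leucine zipper transcription factor. Its signal was 356.8 in replicate 1 and 500.7 in replicate 2, with ranks of 231 and 128. The summit 730 bp upstream of ed, the gene of the cell adhesion protein Echinoid, had 406.5 in replicate 1 and 401.8 in replicate 2, with ranks of 169 and 229. The member 565 bp upstream of ds, which encodes the atypical cadherin Dachsous of the planar polarity and Hippo pathways, had 314.3 in replicate 1 and 447.7 in replicate 2, with ranks of 316 and 175. Of these 3, the Atf3 and ds members thus ranked higher in replicate 2 and the ed member in replicate 1.

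Further down the same ranking were members before stck, stv and E(spl)malpha-BFM. The stck summit, 1807 bp upstream of the gene for the integrin adhesion protein PINCH, had 322.0 in replicate 1 and 292.0 in replicate 2. The stv summit, 578 bp upstream of a gene for a BAG-domain co-chaperone, had 341.5 in replicate 1 and 260.1 in replicate 2. Both ranked higher in replicate 1, at 288 against 460 in replicate 2 for stck and at 261 against 591 for stv. The E(spl)malpha-BFM member lay 1789 bp upstream of its gene, a Bearded family gene of the Enhancer of split complex that responds to Notch. It had 263.0 in replicate 1 and 289.0 in replicate 2.

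Of the 20 highest members found in both replicates, 13 were nearest to a protein-coding start and 7 to a noncoding RNA start. Of all members, 66.1% and 30.1% were. The signals ranged from 502.1 to 1179. All 20 ranked 874 or higher in replicate 1 and 591 or higher in replicate 2, as a choice by signal and by recovery in both makes likely. Upstream positions were taken by 19 of them, beside 78.6% of all members, and the member 590 bp downstream of lncRNA:CR45392 was the exception. The others were nearest to RasGAP1, a GTPase-activating protein gene of the Ras pathway, the ABC transporter gene Atet, DNAlig3, CG13676, CG11964, out, CG12643 and the noncoding RNA genes CR44713, CR44723, CR45310, CR45937 and CR42794. At 6 of the 20 the nearest start had a peak of its own within 500 bp, beside 31.3% of all members, among them Atf3 and out. The DNAlig3 member sat in a gap of 437 bp between Sol1 and Cyp9f2, which are other genes, and its nearest start was 1287 bp away.

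**Figure D1:**
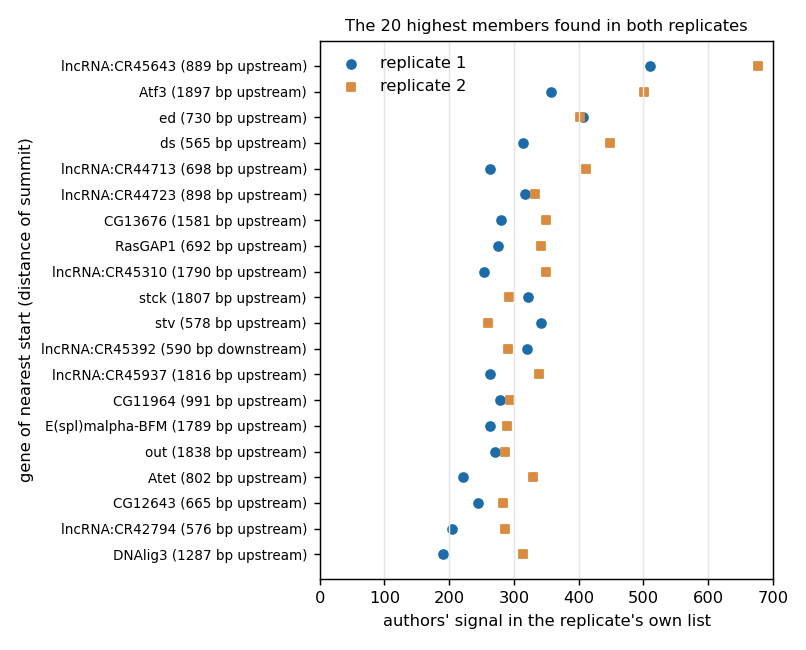
The authors' signal (x axis, no stated unit) in each replicate's own list for the 20 highest members found in both replicates (rows, named by nearest start with distance and side). Replicate 1 is drawn as circles and replicate 2 as squares, and lncRNA:CR45643 has the highest value in both, at 509.5 and 676.4. The replicate lists are separate and their signals are not on a stated common scale.

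As a whole the members were of ordinary strength. Their median signal was 128 (quartiles 86.3 and 193, highest 1179), against 123 for the 8743 other peaks (quartiles 84.5 and 208, highest 3609). Peaks within 500 bp of a start had a median of 122, peaks inside genes farther from a start 124, and intergenic peaks over 2000 bp from a start 119. Of the members, 51 (9.24%) were among the 1000 highest peaks, against 10.9% of other peaks. In replicate 1 the median was 73.1 for peaks chosen by the same rule and 77.0 for the others, and in replicate 2 it was 76.2 and 74.3, so the order differed between replicates. Median width was 384 bp for members and for other peaks.

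Members were recovered by the single replicates about as often as other peaks. A thresholded peak of replicate 1 overlapped 389 members (70.5%), against a background of 67.3% of all conservative peaks. Replicate 2 recovered 429 members (77.7%), against 76.4% of all. Both replicates recovered 346 (62.7%, interval 58.6 to 66.6), against 58.8% of all peaks. A thresholded peak of neither overlapped 80 members (14.5%, interval 11.8 to 17.7), and the same held for 1326 of the 8743 other peaks, a similar share. The recovered members were the stronger ones. With the members split by signal into 4 sets of 138, both replicates held 138, 128, 60 and 20 members, from the highest set to the lowest. A member that overlaps a stronger conservative peak can be counted as recovered through the replicate peak of that neighbour. Without the 41 members of this kind, both replicates held 100%, 93.4%, 43.1% and 3.96% of the sets, in the same order. Of the 163 members without a thresholded peak in replicate 1, 162 overlapped a peak in its unthresholded list, and of the 123 without one in replicate 2, 121 did. Applied to each replicate's own list, the same rule gave 411 of 6678 peaks (6.15%) in replicate 1 and 480 of 8213 (5.84%) in replicate 2, or 6.0% ± 0.219 (SD, n = 2).

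Across 549 members matched to a peak in both unthresholded lists, the replicate signals had a Spearman rho of 0.787, and across 8663 other peaks it was 0.793. The matched replicate summits lay a median of 25 bp apart at members and 24 bp at other peaks. All these peaks came from a list kept for agreement between the same 2 replicates, so part of this agreement follows from that choice. The points also share the same 2 libraries, and a member beside a stronger peak can be matched to that peak's replicate signal. Without the 41 members that overlapped a stronger peak the rho was 0.796 across 508 members.

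**Figure D2:**
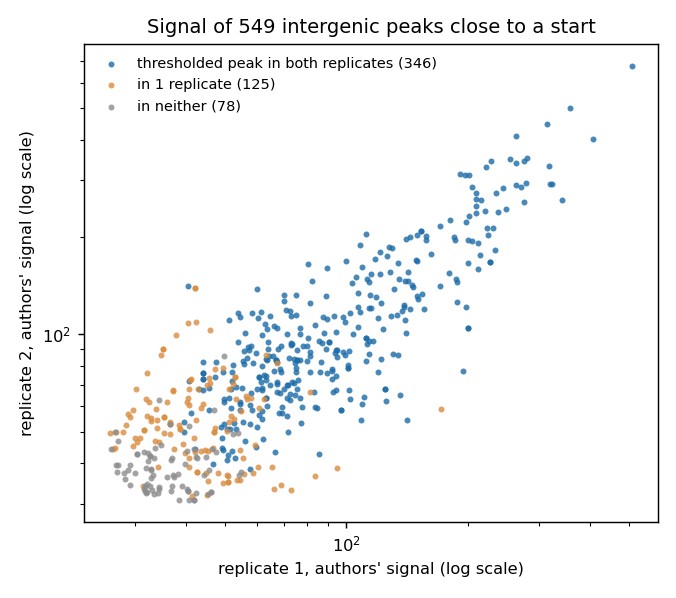
The authors' signal in replicate 1 (x axis, log scale) and replicate 2 (y axis, log scale) for the 549 members matched to a peak in both unthresholded lists, coloured by whether a thresholded peak overlapped. The 346 members recovered in both replicates fill the upper right, and the 78 recovered in neither lie at the lower left.

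A group of very weak members lay against a stronger peak. The interval of 41 members (7.43%) overlapped a conservative peak of higher signal. These members were set apart after the values had been seen. Their median signal was 16.1, against 135 for the other 511 members. Of the 36 members with a signal under 50, 33 overlapped a stronger peak. At fz, the gene of the Wnt receptor Frizzled, a member of signal 398.2 lay 1745 bp upstream of the start and another of signal 27.7 lay at 1545 bp. Both were matched to the same peak of replicate 1 (226.8) and of replicate 2 (166.8). At ph-d, a Polycomb group gene, the pair had signals of 282.9 and 12.1, with summits 894 and 1098 bp upstream.

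Eligible sequence, meaning bases outside genes at the same distances from the nearest start, covered 7.39 Mb or 5.52% of the chromosome arms. It held 74.7 members per Mb. The rest of the arms held 69.1 peaks per Mb, with 177 per Mb within 500 bp of a start, 58.5 per Mb inside genes farther away and 30.5 per Mb in intergenic sequence over 2000 bp from a start. The members' density was therefore above that of the more distant sequence and below that of the promoter windows. Its ratio to the rest of the arms was 1.08, and with the upper limit at 3000 bp the order turned, with a ratio of 0.973.

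Within the eligible range density changed little with distance on the upstream side. Distances had a median of 1151 bp, with quartiles of 802 and 1534.5 bp. Upstream of starts there were 77.3 members per Mb up to 750 bp, 80.6 at 751 to 1000 bp, 77.8 at 1001 to 1250 bp, 90.7 at 1251 to 1500 bp, 82.3 at 1501 to 1750 bp and 85.1 at 1751 to 2000 bp. Outside the range, intergenic summits upstream of a start reached 349 per Mb within 250 bp and 155 per Mb at 251 to 500 bp, and 57.6 per Mb at 2001 to 3000 bp. The lower limit of the rule thus lay after the steep part of this curve. On the downstream side there were 93.1 members per Mb up to 750 bp, and 41.6 to 60.6 per Mb in the bins beyond, each resting on 16 to 22 members.

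**Figure D3:**
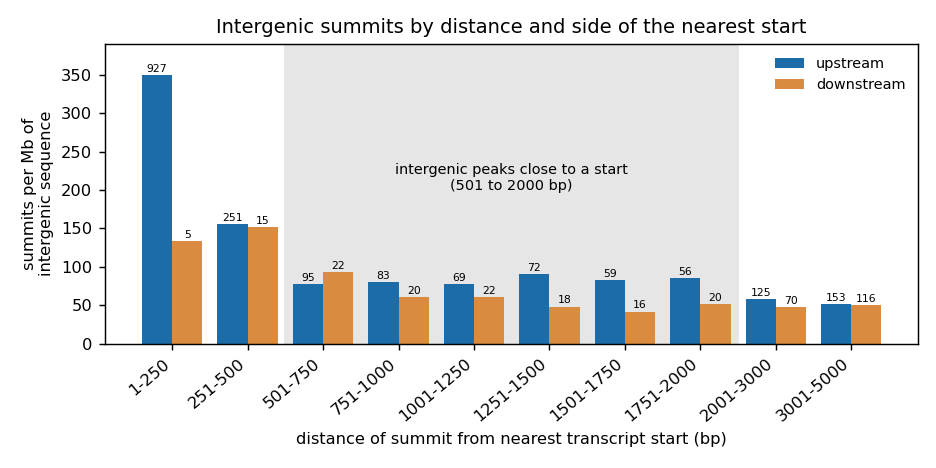
Intergenic summits per Mb of intergenic sequence (y axis) by distance from the nearest transcript start (x axis, bp), upstream in blue and downstream in orange, with the number of summits above each bar and the members' range shaded. Upstream density is 77.3 to 90.7 per Mb across the shaded range, against 349 per Mb within 250 bp.

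Signals of the peaks nearest to the limits ranged widely. Just inside the lower limit were the members at scrib (signal 176.8), a gene of apical and basal cell polarity, and at lncRNA:CR45292 (502 bp, 141.6). Just outside it were peaks at CG13670 (499 bp, 124.5) and lncRNA:CR44730 (498 bp, 111.4). At the upper limit the members at Prosbeta5R1 (1994 bp, 84.9), which encodes a proteasome subunit, and at the pseudogene CR43096 (2000 bp, 175.5) were inside. Peaks at CG33798 (2013 bp, 19.5) and CG10357 (2019 bp, 205.1) were outside.

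Members lay upstream of the nearest start in 434 cases (78.6%, interval 75 to 81.8), where 71.9% of eligible bases are upstream. The density was 81.7 per Mb upstream and 56.9 per Mb downstream. Replicate 1 gave 80.0% upstream and replicate 2 gave 79.0%, or 79.5% ± 0.771 (SD, n = 2). A downstream member must lie past the end of its gene, and the 118 downstream members were nearest to short genes. Those genes had a median length of 597.5 bp, against 3059 bp for the genes with an upstream member, and 75 of them were noncoding RNA genes and 37 protein-coding, counted per member. Median signal was 126 upstream and 136 downstream. In the 4 signal sets of 138, from highest to lowest, 105, 106, 113 and 110 members were upstream.

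The nearest start belonged to a protein-coding gene for 365 members (66.1%), to a noncoding RNA gene for 166 (30.1%), to a tRNA gene for 15 (2.72%), to a pseudogene for 4 and to a small nucleolar RNA gene for 2. Median signal was 128 for members at protein-coding starts and 134 at noncoding RNA starts, and at tRNA starts 6 of the 15 members were found in both replicates. For the 166 members nearest to a noncoding RNA start, the closest protein-coding start was a median of 4983.5 bp away. It lay within 2000 bp for 30 of them and over 5000 bp away for 83. Of all 552 members, 396 had a protein-coding start within 2000 bp.

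Some starts near a member had a peak of their own. At 173 members (31.3%, interval 27.6 to 35.3) a conservative peak had its summit within 500 bp of the nearest start. The share was 18.5% of all 23581 transcript start positions, 25.7% for the nearest starts of intergenic peaks over 2000 bp away and 36.6% for those of peaks inside genes. It was 110 of 365 (30.1%) at protein-coding starts and 58 of 166 (34.9%) at noncoding RNA starts. The median signal of the member was 127 where the start had a peak and 130 where it had none.

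Members were spread over 454 intergenic gaps, which was 7.65% of the 5938 gaps that hold eligible bases. A single member was found in 367 gaps, 2 in 78 gaps, 3 in 7 gaps and 4 in 2 gaps. Gaps with a member were long, with a median of 4169 bp against 1889 bp for all gaps with eligible bases, and a longer gap holds more eligible bases. Another conservative peak was in the same gap for 351 members (63.6%). Another summit lay within 1000 bp of 225 members (40.8%, interval 36.7 to 44.9), against 35.8% of other peaks. The median distance to the nearest other summit was 1308 bp for members and 1662 bp for other peaks.

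The 2 gaps with 4 members were both on 3R, and overlapping members were found in each. The gap of 2941 bp between mtSSB, the gene of a mitochondrial single-stranded DNA-binding protein, and lncRNA:CR45639 held signals of 116.9 and 9.3 at one site and 93.0 and 54.5 at another. The gap of 6958 bp between lncRNA:CR44091 and lncRNA:CR45564 held a pair of 366.8 and 66.4 and single peaks of 296.8 and 212.6. Among the gaps with 3 members, the one on 3L from tRNA:Ile-TAT-1-2 to CG13898 was 32964 bp long and held 16 peaks in all. Its members had signals of 240.6, 495.5 and 208.6, each recovered in both replicates.

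By the direction of the genes at the edges, gaps between divergent genes had the highest density, at 92.9 members per Mb, against 67.4 for tandem and 65.8 for convergent genes. They held 207 members (37.5%, interval 33.6 to 41.6) and 30.2% of eligible bases. The replicate lists gave the same order less clearly. Divergent gaps had 60.1 per Mb in replicate 1 and 80.3 in replicate 2 (70.2 ± 14.3, SD, n = 2), tandem gaps 54.9 and 58.9 (56.9 ± 2.85), and convergent gaps 50.4 and 57.3 (53.8 ± 4.83). The difference between divergent and tandem gaps was thus smaller than the replicate SD of the divergent gaps. Divergent gaps were nevertheless denser in each replicate list, and this SD does not measure the spread of the difference within a list. Members in divergent gaps were also weaker and less often recovered, with a median signal of 120 and 54.6% found in both replicates, against 134 and 66.8% in tandem gaps and 143 and 70.1% in convergent gaps.

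Arm 3L carried 103 members per Mb of eligible sequence, the highest value of the 6 arms. There were 75.1 per Mb on 3R, 69.9 on 2L, 62.5 on X and 61.1 on 2R. Replicate 1 gave 83.4 per Mb on 3L and replicate 2 gave 93.6 (88.5 ± 7.2, SD, n = 2), while the other large arms had means of 43.9 to 62.6 with SDs of 3.2 to 9.46. Both replicates thus placed 3L above the other large arms, and the gap to 3R, the next, was larger than either SD. On X the members were 3.78% of the arm's peaks, against 7.49% on 3L. Arm 4 had 0 of its 12 peaks among the members, which allows a share of up to 25%, with 0.0692 Mb of eligible sequence. The same rule found 0 members on arm 4 in replicate 1 and 2 in replicate 2. Annotated transposable elements covered 4.88% of eligible bases and held 4 member summits (0.725%, interval 0.282 to 1.85), and how reads in repeats were placed is not given in the sources used here.

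**Figure D4:**
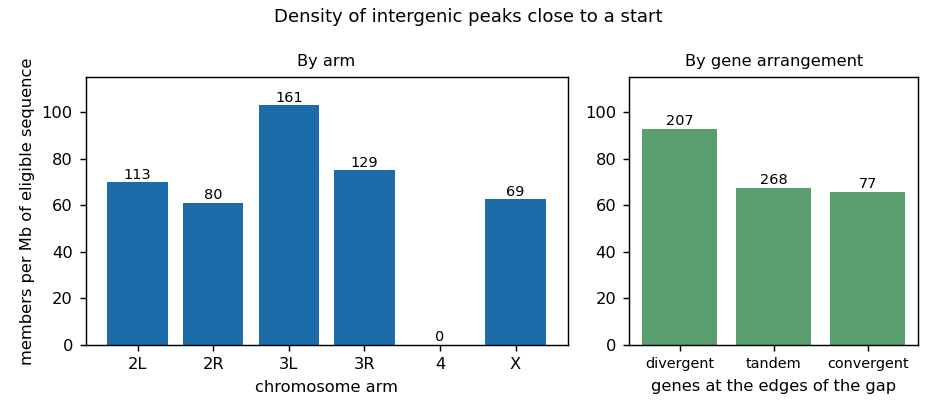
Members per Mb of eligible sequence (y axis) by chromosome arm (left) and by the direction of the genes at the edges of the intergenic gap (right), with the number of members above each bar. Arm 3L stands at 103 per Mb and divergent gaps at 92.9 per Mb.

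Member summits were AT-rich within DNA of higher GC. Mean GC within 50 bp of the summit was 32.6% (SD over members 9.66), and windows of the same size at 300 bp on either side averaged 44.9%, a fall of 12.3 percentage points (SD 13.5). The fall was 10.3 at other peaks, with 7.0 at promoter peaks, 11.4 at peaks inside genes and 16.3 at intergenic peaks over 2000 bp from a start. GC was below the flanks at 449 members (81.3%) and at 76.7% of other peaks. By class, this share was 65.7% at promoter peaks, 82.1% at peaks inside genes and 88.3% at intergenic peaks over 2000 bp from a start. All eligible windows had a mean of 40.1%, so the flanks were richer in GC than the eligible sequence as a whole. The replicate lists gave falls of 14.4 and 11.7 points, or 13 ± 1.92 (SD, n = 2).

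The fall grew with distance from the start and with signal. It was 9.69 points for the 220 members up to 1000 bp and 14.0 for the 332 farther away. From the set of highest signal to the set of lowest it was 17.0, 13.1, 12.8 and 6.2 points. The 41 members that overlapped a stronger peak had a mean GC of 46.5%, above that of their flanks on average, so that their fall was -3.8 points (SD 11.8). Without them the 4 sets fell by 17.1, 13.2, 12.7 and 10.5 points. Among the 20 highest members summit GC was 20.8% at CG11964 and 44.6% at lncRNA:CR45643, the ends of the range, with a median of 31.2%. The E(spl)malpha-BFM summit had 26.7% GC in flanks of 61.9%. Runs of at least 6 A or T, as marked in the sequences above, covered a mean of 28.2 bases of the member windows (SD 16.5), against 13.1 in the flanks, 18.4 in all eligible windows and 26.5 at other summits.

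**Figure D5:**
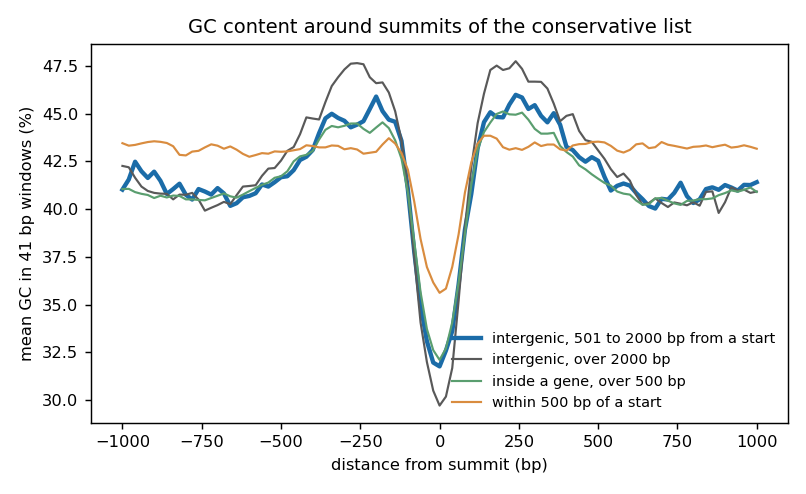
Mean GC (y axis, %) in windows of 41 bp by distance from the summit (x axis, bp) for members (thick blue) and the other classes of conservative peaks. Members drop to 31.8% at the summit between maxima of 45.9% at -200 bp and 46.0% at 240 bp, and are at 41% and 41.4% at 1000 bp to each side.

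Of 17 motifs searched on both strands within 50 bp of the summit, 3 AT-rich ones had shares in member windows whose intervals lay above the share of the 68532 eligible windows. The homeodomain core TAATTA was in 12.1% of member windows (interval 9.67 to 15.1), against 8.43% of eligible windows, 5.53% of flanks and 9.29% of other summits. The GATA-type word AGATAA was in 9.42% of member windows, against 5.88%, 5.25% and 7.87% in the same order. Runs of 8 A were in 10.1%, against 6.14%, 5.43% and 12.8%. TTTATG, the word of the Abd-B type of homeodomain, was at 13.9% against 13.6%. GC content was not equal in these windows, at 32.6% in members, 40.1% in eligible windows, 44.9% in flanks and 33.9% at other summits, and its part in these shares was not tested.

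GAGAG, the core of GAGA factor sites, was in 54 member windows (9.78%, interval 7.58 to 12.5). It was in 10.4% of eligible windows, 14.7% of flanks, 12.6% of other summits and 16.3% of promoter summits. Without the members that overlapped a stronger peak it was in 9.39%. From the highest signal set to the lowest, 8, 11, 15 and 20 of 138 windows held it, and without the members that overlapped a stronger peak the lowest set had it in 13.9%. GAGAGAGA was in 0.362% of member windows, against 0.503% of eligible windows and 2.39% of promoter summits. The TEAD word GGAATG was in 3.08%, against 5.0% of eligible windows, and ACAGTG was in 3.99% against 3.45%, with 5.35% of other summits. CACGTG, the E-box of clock and Myc proteins, was in 0 of 552 windows, which allows a share of up to 0.543% by 3 counts and 0.691% by the Wilson interval. It was in 1.21% of eligible windows and in 0.618% of other summits, a share that lies between these limits. The word GGTCACAC was also in 0 of 552, against 0.134% of eligible windows and 0.4% of other summits. The BEAF-32 word CGATA was in 10.7% against 10.2% of eligible windows, and TATCGATA, the DNA replication-related element that contains it, in 0.181% against 0.228%. The nuclear receptor word AAGGTCA (0.725% against 0.957%), the Zelda word CAGGTAG (0.362% against 0.464%) and the AP-1 word TGACTCA (0.362% against 0.8%) were rare. ACACACAC was in 1.45% against 1.91% and CATGCG in 1.99% against 2.63%.

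Among all words of 6 bases present in at least 5% of member windows, TACTAA had the highest ratio to the eligible windows. It was in 55 windows (9.96%), against 3.84% of eligible windows and 6.87% of other summits, a ratio of 2.6. ATACTA, which shares 5 bases with it, followed at 9.42% against 3.75%, with 6.68% of other summits. GTAGTA, which overlaps the reverse complement of both, was at 5.25% against 2.2%, and ATCTTA at 11.1% against 4.88%. ATGGTA was in 7.97% of member windows, against 3.69% of eligible windows and 4.07% of other summits. These words were picked for their ratios, overlap one another in part, and come from windows of unequal GC, whose part was not tested.

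Genes nearest to a member numbered 478 of the 18164 annotated, a background of 2.63%. By kind they were 322 of 13945 protein-coding genes (2.31%), 135 of 3261 noncoding RNA genes (4.14%), 15 of 290 tRNA genes (5.17%) and 2 of 301 small nucleolar or small nuclear RNA genes (0.664%). Of 260 microRNA genes 0 were nearest, which allows up to 1.15%. By the rule, a gene can be counted only where eligible bases have its start as the nearest. How many genes of each kind have such bases was not determined, so these shares do not compare the kinds on equal terms. Among the tRNA genes the highest members were at tRNA:Ile-TAT-1-2 (106.6 in replicate 1 and 134.3 in replicate 2) and tRNA:Phe-GAA-1-6 (112.4 and 93.3).

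In the ecdysone response list 2 of 32 genes were nearest to a member (6.25%), beside 2.63% of all genes, and counts this small show no direction. Hr38 encodes a nuclear receptor that can pair with the receptor partner Ultraspiracle, and its member lay 1619 bp upstream with 52.0 in replicate 1 and 76.5 in replicate 2. The Eip63E member, at the gene of an ecdysone-induced cyclin-dependent kinase, had 31.7 and 34.1 and was recovered in neither thresholded replicate list. Of 14 clock genes 1 was nearest (7.14%), the kinase gene dco, with 75.1 in replicate 1 and 114.7 in replicate 2 at 1324 bp upstream.

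Members at genes of the appendage and eye patterning list and of the homeotic and segmentation list had low or middling signals. Of 31 appendage and eye patterning genes 3 were nearest (9.68%), beside 2.63% of all genes, and counts this small show no direction. All 3 encode transcription factors. The Dll member had 49.4 in replicate 1 and 79.0 in replicate 2, the bab2 member 38.5 and 52.6, and the Lim1 member 37.5 and 36.3. None of these 3 was recovered in both replicates, where 62.7% of all members were. Each summit had at least 54.5% GC, well above the mean of 32.6% for all members. Of 30 homeotic and segmentation genes 1 was nearest (3.33%), hry, which encodes the pair-rule repressor Hairy. Its member had 57.9 in replicate 1 and 60.7 in replicate 2.

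In the signalling list 3 of 65 genes were nearest to a member (4.62%), beside 2.63% of all genes. The counts of this list and the next 2 are too small to show a direction. Besides the fz pair described above, the Wnt4 member, at a Wnt ligand gene, had 36.0 in replicate 1 and 36.3 in replicate 2. The spz member, at the gene of the Toll ligand, had 33.0 in replicate 1 and 33.1 in replicate 2. Neither was recovered in a thresholded replicate list. Of 43 Polycomb, trithorax and insulator genes 2 were nearest (4.65%), ph-d and lola, a BTB zinc finger gene. The lola member, 1420 bp upstream, had 222.2 in replicate 1 and 212.6 in replicate 2 and ranked 729 in the conservative list. The list of 35 genes of neuronal excitability and the synapse also holds dsx, a sex determination gene. It was the only gene of that list nearest to a member (2.86%), with 40.5 in replicate 1 and 140.8 in replicate 2.

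Effector genes were represented by a few single members. Of 144 cuticle protein genes 6 were nearest (4.17%), the highest being Cpr72Eb, with 102.2 in replicate 1 and 63.3 in replicate 2. Cpr50Ca had 71.4 and 69.6, Cpr49Ah 51.8 and 59.4, and Cpr47Ec 37.3 and 67.5. Of 185 chemoreceptor genes 4 were nearest (2.16%), all recovered in both replicates. The Or45b member, at an odorant receptor gene, ranked 585 in the conservative list and had 248.7 in replicate 1 and 243.8 in replicate 2. Gr93a had 91.9 and 78.1, Gr89a 70.7 and 118.8, and Or10a 52.2 and 43.7. The lists of cytosolic ribosomal proteins (0 of 92, up to 3.26%), muscle genes (0 of 32, up to 9.38%), metamorphic cell death and autophagy (0 of 30, up to 10%) and antimicrobial peptides (0 of 23, up to 13%) had no gene nearest to a member, and these limits do not separate them from the 2.63% of all genes.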

How the data were processed

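Peak lists in dm6 coordinates were deposited for each replicate and for both together. Signal per peak is the authors' deposited value, on a scale not stated. A −log10 global IDR (irreproducible discovery rate) per peak is deposited in the ranked lists and served 1 alternative. Each conservative peak had at least 2.0. The caller was not given in the sources used here, nor was the aligner. A control experiment in the labels was not used.

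Summits on the 6 main arms were annotated with Ensembl release 115 genes, without transposable elements, and Release 6 sequence. Recovery in a replicate needed an overlap of at least 1 bp with its thresholded peaks. Replicate signals came from the overlapping peak of that replicate's ranked list. Named genes were those at the 20 highest members found in both replicates, up to 4 highest per list, those at the distance limits, and the 3 gaps with most members. Of the list names, 15 matched by synonym and 7 did not match. Members, the 18 lists and 17 motifs were chosen with earlier results of these data known. The code ran under Python 3.11.15 (pandas 2.3.3, numpy 2.4.6, matplotlib 3.10.9, scipy 1.17.1) and was tested on simulated data. Alternatives tried were each replicate alone, other peak lists, a stricter IDR, protein-coding genes only, and other distances, overlaps and windows.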

Additional observations from a re-analysis of the deposited data

How the results depend on the processing

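Of 58 alternative values for 8 results, 36 stayed within a tolerance and 22 moved further. The tolerance was the SD between the replicate lists, or the Wilson interval for the share found in both replicates. That SD comes from the single-replicate values, which are themselves among the alternatives, so it is no independent yardstick for them. With a global IDR of 0.001 or less, members were 6.36% of peaks. Their density ratio to the rest of the arms was 1.16 in place of 1.08. Both replicates held 93.2% of them, which follows in part from this cut, because the IDR itself measures agreement between replicates. Of these members 77.1% were upstream, their signal ratio to other peaks was 0.924 in place of 1.05, and 24.1% had a peak at the nearest start. With protein-coding genes only the share was 5.07%, the density ratio 1.14 and the upstream share 88.1%. With the upper limit at 3000 bp they were 8.04%, 0.973 and 74.8%. The density ratio thus fell below 1 with the wider range. In the less strict list 35.9% had a peak at the nearest start. With 200 bp in place of 500 bp around the start this share was 15.8%. Requiring 50% of both peaks gave 47.5% found in both replicates, and summits at most 100 bp apart gave 58.2%. With 100 bp to each side of the summit and the flanks centred 500 bp in place of 300 bp away, the GC fall was 6.84 points. Both changes were made together, so their parts in this value cannot be told apart. The GAGAG share within 100 bp of the summit was 21.6%.

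In single replicates, given from lowest to highest, members were 5.84% and 6.15% of peaks, the density ratio was 1.06 and 1.12, the upstream share 79.0% and 80.0%, the signal ratio 0.949 and 1.03, the GC fall 11.7 and 14.4 points, the share with a peak at the nearest start 27.3% and 30.4%, and the GAGAG share 8.03% and 11.7%. Recovery in both replicates has no value for a single replicate. No paired analysis was possible because there is 1 group. Depth is unknown, so limits set by depth cannot be given.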
